A study of Hapsidospora chrysogena with 9 samples.

Results

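The time course of an AcmybA overexpression strain of Hapsidospora chrysogena was followed in 3 mycelium libraries, taken at 48, 72 and 96 h of culture. H. chrysogena, also called Acremonium chrysogenum, is a filamentous fungus grown for the antibiotic cephalosporin C. These 3 libraries are part of 9, the other 6 being an AcmybA knockout and the wild type at the same times, all grown in LPE medium. The overexpression libraries were picked by their genotype label, and the genes described are the 7581 of 8899 in the table that were listed at 10 FPKM or more in at least 1 of the 3. FPKM is a level scaled by transcript length and library size. The highest overexpression values of the nearest genes left out, KFH48238.1 and KFH43776.1, were 9.98 and 9.997 FPKM. Those of the nearest genes kept, KFH47575.1 and KFH42127.1, were 10.02 and 10.05 FPKM. Each strain and time has 1 library. Differences between times in the overexpression strain are therefore given by size, with no p-value and no replicate check.

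Myb proteins are transcription factors that bind DNA through a repeated helical domain, and fungal members are known from the control of growth, sporulation and secondary metabolism. In culture, cephalosporin producers pass through a growth phase into a later phase in which hyphae break into arthrospores and the antibiotic is made. A strain that overexpresses a factor carries more of its transcript, but the promoter used, the number of clones and the number of copies are unknown from the sources used here. Genes carry protein identifiers only, and the file does not pair them with names. AcmybA itself could not be looked up by name, so its level was not analysed here and the strain label was not checked against it. The lists of cephalosporin, sporulation, stress and ribosomal genes drawn up for this work matched 0 identifiers for the same reason, and no list gives a result. In RNA from whole mycelium, a lower level in every hypha and fewer hyphae of one kind cannot be told apart.

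The summed FPKM of the overexpression libraries was 1124539 at 48 h, 919523 at 72 h and 852915 at 96 h, against 972960 to 1053504 in wild type and 1013293 to 1066818 in the knockout. Median FPKM over all genes was nearly level in overexpression, at 38.4, 40.2 and 38.7 at 48, 72 and 96 h. The 100 most abundant transcripts took 31.4%, 27.8% and 27.2% of the summed FPKM at those times. Genes listed at 0 numbered 402, 311 and 331. Read depth is not stated in the file. It was estimated from 86 genes under 1 FPKM in each overexpression library, by fitting their values to whole-read ratios. The estimate put the 48 h library at 0.742 and the 96 h library at 0.933 of the depth of the 72 h library. By this estimate, which assumes that low genes keep their level between times, low genes are read least precisely at 48 h.

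Most of the difference over the time course lay between 48 and 72 h. At 72 h, 883 of the 7581 genes were at least 2-fold higher than at 48 h (11.6%) and 741 were at least 2-fold lower (9.77%). At 96 h, 95 genes were at least 2-fold higher than at 72 h (1.25%) and 261 at least 2-fold lower (3.44%). Here and below 2-fold means a difference of 1 or more in log2(FPKM + 1), a scale that understates differences of low genes. The standard deviation of that difference over the 7581 genes was 0.99 between 48 and 72 h and 0.53 between 72 and 96 h. Genes within 1.25-fold between adjacent times made up 33.0% in the first step and 64.0% in the second. At 4-fold, 252 genes were higher and 81 lower at 72 h than at 48 h (3.32% and 1.07%), while 17 were higher and 36 lower at 96 h than at 72 h (0.224% and 0.475%). The 2 steps share the 72 h library.

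**Figure D1:**
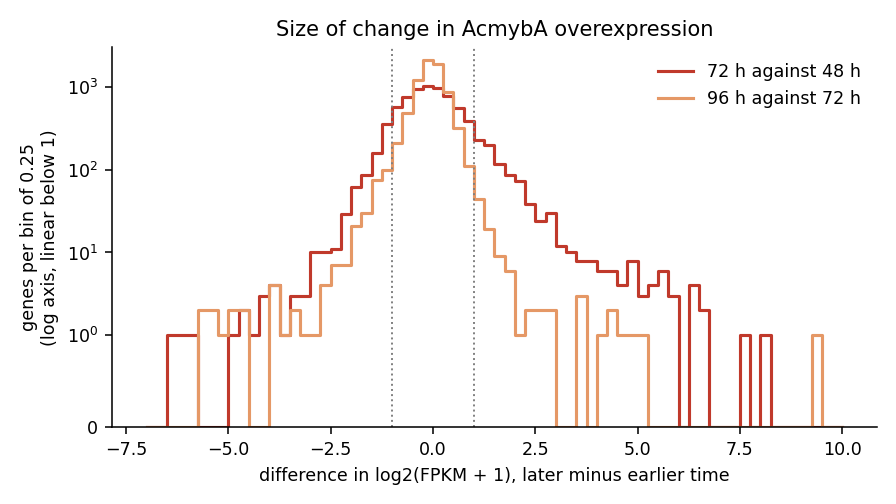
Number of genes (y axis, logarithmic above 1 and linear below) in bins of the difference in log2(FPKM + 1) between the later and the earlier time (x axis), for the 7581 genes in the AcmybA overexpression strain. The curve for 72 h against 48 h is wider (SD 0.99) than that for 96 h against 72 h (SD 0.53), and the dotted lines mark a 2-fold difference.

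From end to end, 1073 genes were at least 2-fold higher at 96 h than at 48 h (14.2%) and 1290 were at least 2-fold lower (17.0%). The balance of higher and lower genes depends on how the libraries are scaled, because the summed FPKM differed between them. As deposited, higher genes made up 54.4% of those at least 2-fold apart for 72 h against 48 h, 26.7% for 96 h against 72 h and 45.4% for 96 h against 48 h. With the 3 libraries set to equal totals, the median log2 difference over all 7581 genes shifted to 0.23, 0.06 and 0.28 for these contrasts, where it had been -0.05, -0.05 and -0.10. The higher and lower genes then numbered 1317 and 365 for 72 h against 48 h (78.3% higher). They numbered 124 and 210 for 96 h against 72 h (37.1% higher) and 1745 and 685 for 96 h against 48 h (71.8% higher). Neither direction can therefore be called the more frequent for 96 h against 48 h. Lower genes outnumbered higher ones between 72 and 96 h, and higher genes outnumbered lower ones between 48 and 72 h, under both of these scalings and also under median-of-ratios and quantile scaling. Among the genes at 10 FPKM or more at all 3 times, however, 549 were higher and 621 lower at 72 h than at 48 h.

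Grouped by time of highest level, transcripts split unevenly, with 48 h the largest class in every strain. Of the 7581 genes in overexpression, 3646 (48.1%) were highest at 48 h, 1553 (20.5%) at 72 h and 2382 (31.4%) at 96 h. Wild-type shares were 41.4%, 30.4% and 28.3% in that order, and knockout shares 45.1%, 22.7% and 32.2%. The split follows the deposited scale, on which the 48 h overexpression total was the highest, and was not recomputed under other scalings. The range over the 3 times was at least 2-fold for 2577 genes (34.0%), at least 4-fold for 646 (8.52%) and under 1.25-fold for 1396 (18.4%). In wild type the same 7581 genes gave 24.2%, 6.05% and 20.3% for these classes, and in the knockout 21.6%, 5.41% and 22.8%. The genes were chosen for their overexpression level, and the gap between strains in these shares was not tested.

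Differences between 48 and 72 h were seen at every level of abundance. Of the 423 genes with a mean of 300 to 1000 FPKM over the 3 overexpression libraries, 116 (27.4%) were at least 2-fold lower at 72 h than at 48 h and 48 (11.3%) at least 2-fold higher. Of the 2241 genes with a mean under 30 FPKM, 173 (7.72%) were lower and 329 (14.7%) higher. Among the 105 genes with a mean of 1000 FPKM or more, 24 (22.9%) were lower and 15 (14.3%) higher. Between 72 and 96 h none of those 105 was at least 2-fold higher and 12 (11.4%) were lower. These counts follow the deposited scale, on which the total was lower at each later time. With equal totals, the class of 300 to 1000 FPKM had 62 lower and 60 higher genes at 72 h, and with quantile scaling 49 lower and 65 higher, so its excess of lower genes depends on the scaling. The same 2 scalings turned the class of 1000 FPKM or more, to 20 lower and 21 higher and to 15 lower and 25 higher, and quantile scaling turned the class under 30 FPKM, to 253 lower and 213 higher. The absence of genes at least 2-fold higher at 96 h than at 72 h among the 105 held under all 4 scalings.

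**Figure D2:**
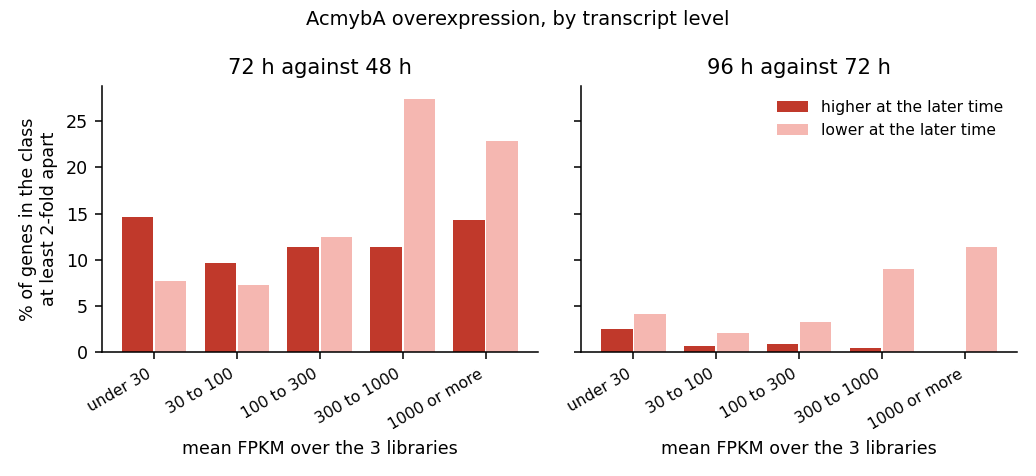
Share of genes (y axis, %) at least 2-fold higher (dark) or lower (pale) at the later time, by mean FPKM over the 3 AcmybA overexpression libraries (x axis), for 72 h against 48 h at left and 96 h against 72 h at right. The share of lower genes at 72 h is 27.4% in the class of 300 to 1000 FPKM on the deposited scale plotted (62 genes lower and 60 higher with equal totals), and shares in the second step are smaller in every class.

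Part of the total passed between genes. Taken as percent of each library's summed FPKM, genes with a larger share at 72 h than at 48 h gained 25.7 percentage points together, and genes with a larger share at 96 h than at 72 h gained 11.4. The 10 transcripts with the largest loss of share between 48 and 72 h accounted for 27.3% of all loss. Of the 100 most abundant transcripts, 62 were shared by the 48 and 72 h libraries, 82 by the 72 and 96 h libraries and 55 by the 48 and 96 h libraries. Wild type gave 63, 86 and 61 in the same order and the knockout 69, 75 and 58.

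The transcript of highest mean level over the overexpression time course was KFH46859.1. Overexpression mycelium held 21551, 20433 and 13857 FPKM of it at 48, 72 and 96 h. Wild type held 9872, 40273 and 30895 FPKM, the knockout 9862, 19791 and 7479. As deposited it was thus lowest at 96 h in overexpression and the knockout, and lowest at 48 h in wild type. Its log2 difference between 96 and 48 h in overexpression was -0.64, but 0 with quantile normalisation. KFH41657.1 came second by mean, at 40692, 5736 and 3352 FPKM in overexpression. This was 3.62% of the summed FPKM at 48 h and 0.393% at 96 h, and its log2 difference between 96 and 48 h was -3.60. Wild type held 14611, 9763 and 6823 FPKM, the knockout 15127, 7030.4 and 8363, so each strain had less of it at 96 h than at 48 h.

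Single genes are ranked here among those listed above 0 in all 3 overexpression libraries. Within them the largest gains between 48 and 72 h belonged to KFH43529.1 and KFH48240.1, with 6 genes listed at 0 in a library beyond both. Both named genes were lower again at 96 h than at 72 h. In overexpression KFH43529.1 read 7.58, 715 and 222 FPKM at 48, 72 and 96 h, a log2 difference of 6.38 for 72 h against 48 h and of -1.68 for 96 h against 72 h. Wild type read 20.3, 529.9 and 483 FPKM, the knockout 1199.5, 2349 and 5905. The level was thus highest at 72 h in overexpression and in wild type, and highest at 96 h in the knockout. In overexpression KFH48240.1 read 1.06, 167 and 43.2 FPKM, with log2 differences of 6.35 and -1.93 in the same order. Wild type read 3.51, 85.6 and 73.9 FPKM, the knockout 266, 604 and 3053. Its order of times was that of KFH43529.1 in all 3 strains, and at each time the knockout had the most of both genes.

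Across the 252 genes at least 4-fold higher at 72 h than at 48 h, the median FPKM in overexpression was 5.69, 53.7 and 55.9 at 48, 72 and 96 h. The same genes had medians of 13.4, 62.5 and 54.8 FPKM in wild type and 35.6, 49.96 and 73.0 FPKM in the knockout. The overexpression library at 48 h thus held the lowest median of the 9. These genes were chosen for a low 48 h or a high 72 h value in overexpression, so the low median there is a description. The same holds for every other group or single gene picked by its change in overexpression. A larger change there than in the other strains follows in part from the choice. Their share of summed FPKM in overexpression was 0.917%, 7.06% and 8.11%.

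Among genes above 0 in all 3 overexpression libraries, the largest drops between 48 and 72 h were those of KFH41172.1 and KFH46041.1, and 3 genes with a 0 lay beyond the first. In overexpression KFH41172.1 read 3849.9, 138 and 132 FPKM at 48, 72 and 96 h, a log2 difference of -4.79 for 72 h against 48 h. Wild type read 121, 86.4 and 229.7 FPKM, the knockout 1584, 1929.7 and 332. Its 48 h level in overexpression stood above all 8 other libraries, and wild type showed no drop of that size. In overexpression KFH46041.1 read 64.2, 1.45 and 0.949 FPKM, a log2 difference of -4.73. Wild type read 1.29, 10.2 and 1.21 FPKM, the knockout 16.1, 4.46 and 3.997. The 48 h overexpression library was again the highest of the 9. For the 81 genes at least 4-fold lower at 72 h than at 48 h, the median FPKM in overexpression was 137, 20.8 and 13.6, with 46.4, 32.3 and 29.1 FPKM in wild type and 69.7, 37.96 and 30.3 FPKM in the knockout. Their part of all FPKM in overexpression was 9.11%, 1.68% and 1.13%.

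**Figure D3:**
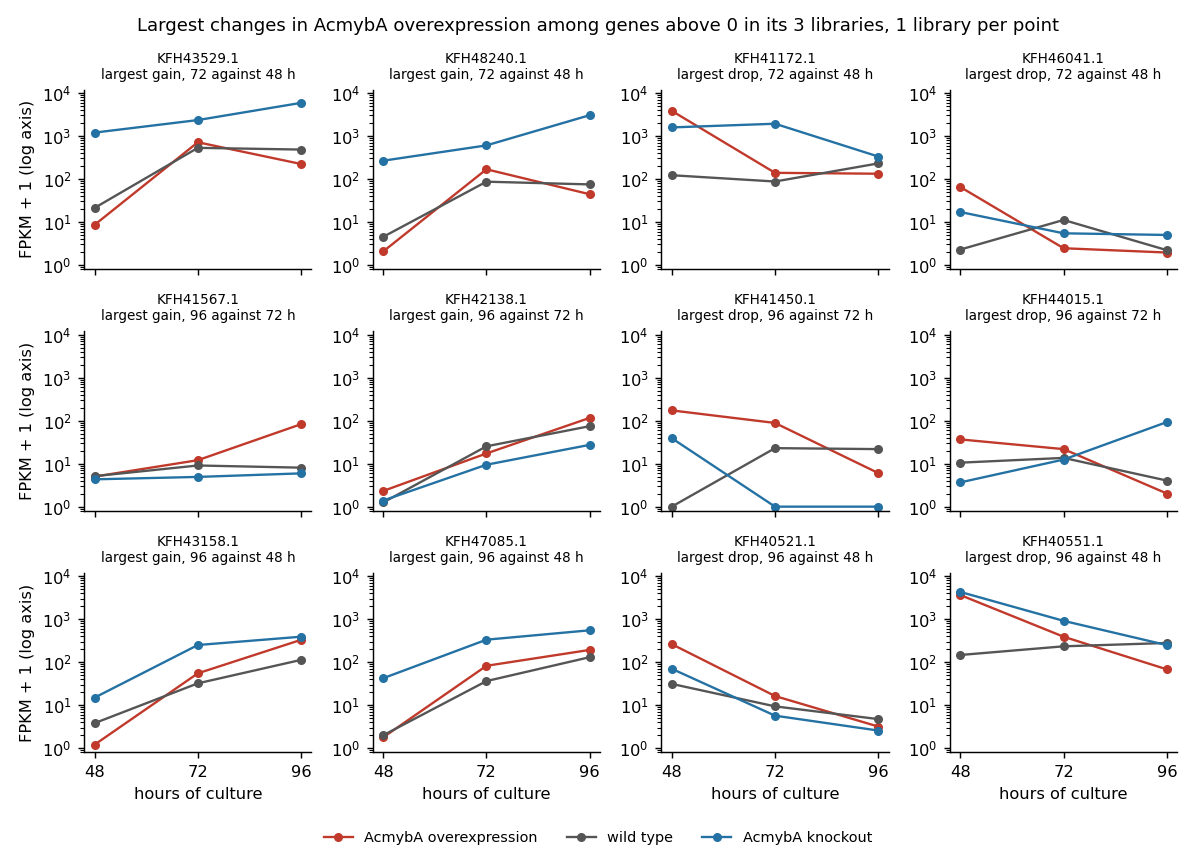
FPKM + 1 (y axis, logarithmic) against hours of culture (x axis) for the 12 genes with the largest gains and drops in AcmybA overexpression in each of 3 contrasts, among genes above 0 in its 3 libraries, with wild type and AcmybA knockout alongside. Each point is 1 library. KFH43529.1 and KFH48240.1 are highest at 72 h in overexpression and at 96 h in the knockout, and KFH40551.1 is lower at each later time in overexpression and the knockout but not in wild type.

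Between 72 and 96 h the largest gain among genes above 0 at all 3 times was that of KFH41567.1, and 10 genes with a 0 gained more. Overexpression read 3.997, 11.05 and 81.9 FPKM of it, a log2 difference of 2.78 for 96 h against 72 h. Wild type read 4.12, 8.07 and 7.07 FPKM, the knockout 3.32, 3.92 and 4.94. At 48 h the 3 strains were within 1 FPKM of each other, and at 96 h overexpression stood above both. In overexpression KFH42138.1 read 1.32, 16.3 and 115 FPKM, a log2 difference of 2.75 for 96 h against 72 h. Wild type read 0.251, 24.3 and 73.5 FPKM, the knockout 0.389, 8.44 and 26.4, so every strain had more of it at each later time.

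KFH41450.1 and KFH44015.1 had the largest drops between 72 and 96 h among genes listed above 0 at all 3 times, and 12 genes with a 0 lay beyond the first. In overexpression KFH41450.1 read 172, 87.4 and 5.04 FPKM, a log2 difference of -3.87 for 96 h against 72 h. Wild type listed it at 0, 21.95 and 20.8 FPKM, the knockout at 38.1, 0 and 0. Outside overexpression it was thus listed at 0 in both strains in at least 1 library. In overexpression KFH44015.1 read 35.6, 20.8 and 1.02 FPKM, a log2 difference of -3.43. Wild type read 9.55, 12.6 and 3.04 FPKM, the knockout 2.67, 11.4 and 91.8. Its 96 h level was the lowest of the 3 times in overexpression and wild type and the highest of the 3 in the knockout.

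Over the whole course KFH43158.1 and KFH47085.1 gained most among genes above 0 at all 3 times, while 1 gene with a 0, KFH40412.1, lay beyond the first. In overexpression KFH43158.1 read 0.214, 54.4 and 333 FPKM, a log2 difference of 8.10 for 96 h against 48 h. Wild type read 2.84, 31.4 and 113 FPKM, the knockout 14.1, 252 and 393. In overexpression KFH47085.1 read 0.794, 81.9 and 193 FPKM, a log2 difference of 6.76. Wild type read 1.01, 35.6 and 131 FPKM, the knockout 41.6, 335 and 554. Both genes were higher at each later time in all 3 strains. Their 48 h overexpression values are under 1 FPKM, where the pseudocount weighs most: with a pseudocount of 0.1 the log2 differences were 10.05 and 7.76, and with 5 they were 6.02 and 5.10.

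KFH40521.1 and KFH40551.1 had the largest drops between 48 and 96 h among genes above 0 at all 3 times, and 2 genes with a 0 lay between them. In overexpression KFH40521.1 read 263, 15.4 and 2.20 FPKM, a log2 difference of -6.37 for 96 h against 48 h. Wild type read 30.5, 8.45 and 3.77 FPKM, the knockout 69.7, 4.74 and 1.59, so every strain had less of it at each later time. In overexpression KFH40551.1 read 3667, 393 and 67.5 FPKM, a log2 difference of -5.74. The knockout had a like course, at 4329, 920.0 and 249.9 FPKM. Wild type read higher at each later time, at 147, 235 and 281 FPKM.

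A level at 72 h that stands above or below both neighbours rests on that library alone. In overexpression, 67 genes were at least 2-fold above both other times at 72 h and 15 at least 2-fold below both. In wild type these were 96 and 37 of the same 7581 genes, and in the knockout 54 and 109. Among genes above 0 at all 3 times KFH46797.1 lay farthest above both, reading 7.93, 379.9 and 66.4 FPKM in overexpression. Wild type read 9.26, 287 and 338 FPKM, the knockout 1073, 2409 and 4037. In overexpression KFH48607.1 read 5.94, 48.6 and 12.04 FPKM. Wild type read 97.03, 135 and 98.5 FPKM, the knockout 60.9, 18.3 and 22.1. Both overexpression and wild type had KFH48607.1 highest at 72 h, but the wild-type values lay closer together. Of the genes lowest at 72 h and above 0 at all 3 times, KFH49038.1 lay farthest below both and read 44.8, 11.2 and 41.8 FPKM in overexpression, with 0, 31.5 and 15.2 FPKM in wild type and 11.3, 6.48 and 10.8 FPKM in the knockout. KFH41465.1 read 15.9, 4.57 and 16.2 FPKM in overexpression, with 31.5, 15.6 and 24.1 FPKM in wild type and 26.4, 30.2 and 9.73 FPKM in the knockout. KFH49038.1 was also lowest at 72 h in the knockout, and KFH41465.1 in wild type.

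Steady transcripts were found at moderate and high levels. Among genes with a mean of 100 FPKM or more, KFH46275.1 varied least in overexpression, at 115, 115 and 116 FPKM, with a range of 0.01 on the log2 scale. Wild type read 80.96, 115 and 106 FPKM, the knockout 91.5, 108 and 65.8. In overexpression KFH45680.1 read 830.5, 826 and 828 FPKM. Wild type read 1161, 711 and 811 FPKM, the knockout 912, 888 and 1095. Neither was as level in the other strains, but both were picked for being level in overexpression. Set to equal totals, both would be higher at each later time in overexpression, by a log2 difference of 0.40 for KFH46275.1 and 0.39 for KFH45680.1 between 96 and 48 h.

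Few genes were near absence at one end of the course and clearly present at the other. In overexpression 42 genes were under 1 FPKM at 48 h and at 10 FPKM or more at 96 h, and 10 were at 10 FPKM or more at 48 h and under 1 at 96 h. Of the 42, 32 were listed at 0 in at least 1 overexpression library. Of these 42 genes, 7 made the same change in wild type and 5 in the knockout, against 41 (0.541%) and 10 (0.132%) of all 7581 genes. In the knockout 28 of the 42 were already at 1 FPKM or more at 48 h, as were 99.3% of all 7581. In all, 59 of the 7581 genes were listed at 0 in 1 or 2 overexpression libraries, 44 of them at 48 h. That library had the lowest estimated depth of the 3, and whether depth accounts for its zeros was not tested. In overexpression KFH40412.1 read 0, 0 and 719 FPKM at 48, 72 and 96 h. Wild type read 0, 0 and 1119.6 FPKM, the knockout 532, 0 and 0. KFH43058.1 and KFH48746.1 carried the same value of 66.9 FPKM at 48 h in overexpression and were both at 0 at 96 h. At 72 h KFH43058.1 was listed at 0 and KFH48746.1 at 42.1 FPKM. KFH43058.1 was at 0 in the 6 libraries of the other strains. KFH48746.1 was at 0 in the 3 wild-type libraries, and the knockout read 52.4, 0 and 0 FPKM. Values equal in every digit recur between genes of a library, and no fold is given for these genes.

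Next the time course was set beside those of wild type and knockout, whose libraries it does not share. Across the 7581 genes, the log2 difference between 72 and 48 h in overexpression correlated with that in wild type at r = 0.471 and with that in the knockout at r = 0.213. For 96 h against 72 h r was 0.0658 with wild type and 0.0859 with the knockout. For 96 h against 48 h r was 0.476 and 0.428. With both strains r was thus higher for the first step than for the second. Genes are not independent replicates, and the libraries share their sampling times, so these values describe the libraries only. In level, the overexpression library at 48 h was nearest to wild type at 48 h (r = 0.858) and next to overexpression at 72 h (r = 0.838). The 72 and 96 h overexpression libraries were nearest to each other, at r = 0.942.

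Wild type had 922 genes at least 2-fold higher (12.2%) and 446 lower (5.88%) at 72 h than at 48 h, out of the same 7581. The knockout had 306 higher (4.04%) and 497 lower (6.56%). At 96 h against 72 h wild type had 114 higher (1.50%) and 185 lower (2.44%), and the knockout 344 higher (4.54%) and 293 lower (3.86%). Overexpression and wild type thus had few genes at least 2-fold apart in the second step, and the knockout had 8.40% of genes at least 2-fold apart there, against 10.6% in its first step. At 96 h against 48 h wild type had 800 higher (10.6%) and 543 lower (7.16%), and the knockout 514 higher (6.78%) and 741 lower (9.77%). The counts of these strains are given on the deposited scale only, over genes chosen for their overexpression level.

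**Figure D4:**
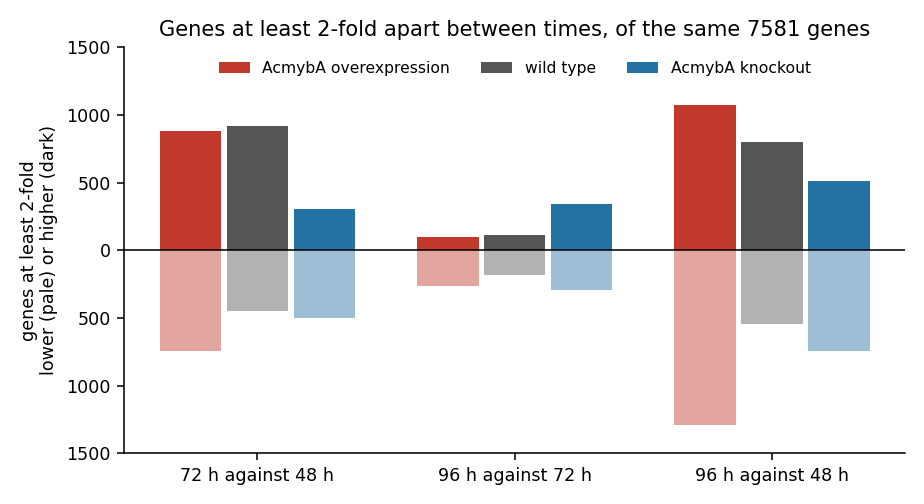
Number of genes (y axis) at least 2-fold higher (dark, above 0) or lower (pale, below 0) at the later time in 3 contrasts (x axis), for AcmybA overexpression, wild type and AcmybA knockout, of the same 7581 genes with 1 library per strain and time. On the deposited scale plotted, overexpression has 1073 higher and 1290 lower genes at 96 h against 48 h, the tallest bars of the plot. With equal totals its counts were 1745 higher and 685 lower. The genes were chosen for their overexpression level.

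Of the 883 genes at least 2-fold higher at 72 h than at 48 h in overexpression, 435 (49.3%) were so in wild type too, where 12.2% of all 7581 genes were. That is 47.2% of the 922 such genes of wild type. In the knockout 172 of the 883 (19.5%) were so, where 4.04% of all genes were, and these are 56.2% of the knockout's 306. Genes of the 883 that were at least 2-fold lower at 72 h numbered 21 (2.38%) in wild type and 82 (9.29%) in the knockout, where 5.88% and 6.56% of all genes were. Of the 741 genes at least 2-fold lower at 72 h in overexpression, 130 (17.5%) were so in wild type and 133 (17.9%) in the knockout, where 5.88% and 6.56% of all genes were. The median log2 difference of the 741 was -1.28 in overexpression, -0.48 in wild type and -0.36 in the knockout, against -0.01 and -0.09 over all genes in wild type and the knockout. The 741 were chosen for their drop in overexpression, so the larger median drop there follows in part from the choice.

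The 95 genes at least 2-fold higher at 96 h than at 72 h in overexpression were mostly not so elsewhere. In wild type 13 of them (13.7%) were at least 2-fold higher and 19 (20.0%) at least 2-fold lower. In the knockout 26 (27.4%) were higher and 11 (11.6%) lower. Over all genes the wild-type shares were 1.50% and 2.44% and those of the knockout 4.54% and 3.86%, so genes of this group were more often apart in both directions. Their median FPKM in overexpression was 7.73, 11.2 and 32.9 at 48, 72 and 96 h, and low levels are read less precisely. The 261 genes at least 2-fold lower at 96 h had medians of 58.8, 55.7 and 21.8 FPKM in overexpression, with 57.7, 61.98 and 47.9 FPKM in wild type and 78.5, 56.6 and 49.4 FPKM in the knockout. Of the 261, 34 (13.0%) were lower at least 2-fold in wild type and 52 (19.9%) in the knockout, while 15 and 45 were at least 2-fold higher there.

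Over the whole course, the 1073 genes at least 2-fold higher at 96 h in overexpression had median levels of 17.0, 48.1 and 59.8 FPKM at 48, 72 and 96 h. The same genes had medians of 22.4, 47.1 and 44.7 FPKM in wild type and 33.7, 38.8 and 47.1 FPKM in the knockout. Overexpression libraries gave them 4.07%, 16.3% and 20.4% of all FPKM, wild-type libraries 7.20%, 16.7% and 16.6%, and knockout libraries 11.6%, 21.7% and 29.7%. In wild type 460 of them (42.9%) were also at least 2-fold higher, in the knockout 312 (29.1%), and in both 225 (21.0%). Of all 7581 genes, 10.6%, 6.78% and 3.81% were so. The 1290 genes at least 2-fold lower at 96 h had medians of 126, 61.1 and 44.1 FPKM in overexpression, with 85.0, 61.4 and 62.5 FPKM in wild type and 87.7, 70.1 and 57.7 FPKM in the knockout. Overexpression libraries gave them 42.4%, 20.7% and 15.0% of all FPKM, wild-type libraries 38.3%, 23.7% and 22.5%, and knockout libraries 33.8%, 24.7% and 19.3%. In wild type 236 (18.3%) were also at least 2-fold lower, in the knockout 352 (27.3%), and in both 115 (8.91%). Of all 7581 genes, 7.16%, 9.77% and 2.64% were so.

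**Figure D5:**
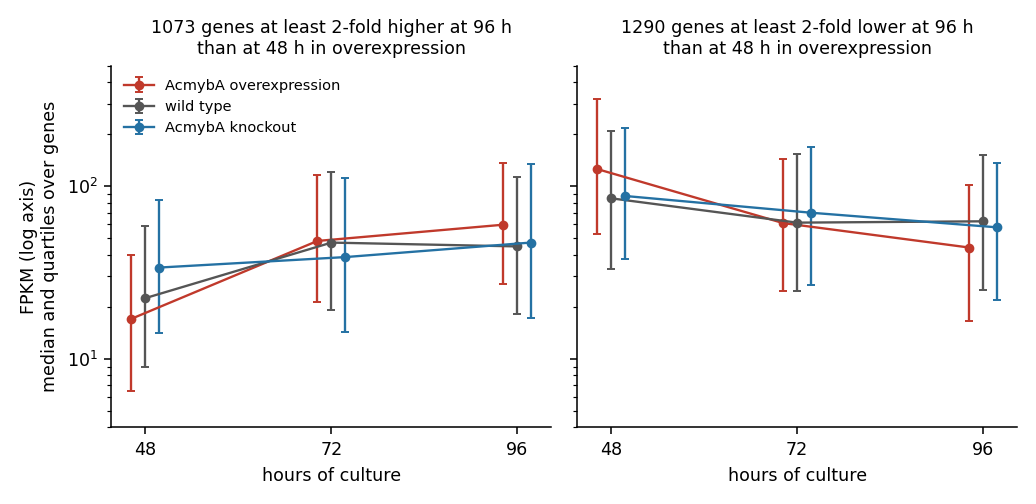
FPKM (y axis, logarithmic) against hours of culture (x axis) for the 1073 genes at least 2-fold higher (left) and the 1290 genes at least 2-fold lower (right) at 96 h than at 48 h in AcmybA overexpression, shown in all 3 strains. Points are medians over genes and bars run between the quartiles over genes, which are not replicates. In overexpression the medians are 17.0 FPKM at 48 h and 59.8 FPKM at 96 h at left, and 126 and 44.1 FPKM at right.

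A straight line over time was fitted for each strain by limma to all 9 libraries and 8482 genes. The lines were used to test whether the net change from the first to the last time in overexpression differed from that in the other strains. With evenly spaced times the middle library does not enter the slope, and a bend counts as error. A peak or dip at the middle time was therefore not tested as a difference. For KFH43529.1, highest at the middle time in overexpression, the slope difference from wild type was 0.097 (SE 1.54). The difference in slope per 24 h passed an adjusted p of 0.05 for 0 genes against wild type (0%) and for 0 genes against the knockout (0%). Before adjustment, 792 genes had a p under 0.05 against wild type (9.34%), 254 with the larger slope in overexpression and 538 with the smaller. Against the knockout 839 had one (9.89%), 408 larger and 431 smaller. These splits by direction are given on the deposited scale only, where the median slope difference from wild type over the 8482 genes was -0.04. With equal totals, 792 genes had an unadjusted p under 0.05 against wild type and 1137 against the knockout. With 0 genes past the adjusted threshold, no gene can be named as particular to overexpression in its slope over time. With 3 residual degrees of freedom, a missed threshold does not show that the courses were alike. KFH40551.1 came nearest against wild type, with a slope difference of -3.34 (SE 0.25, limma adjusted p = 0.0675). Against the knockout its difference was -0.82 (SE 0.25, limma adjusted p = 0.467). For KFH44015.1 the difference from the knockout was -4.42 (SE 0.64, limma adjusted p = 0.219), and for KFH41567.1 the difference from wild type was 1.70 (SE 0.40, limma adjusted p = 0.427).

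Genes with adjacent accession numbers were also looked at, since the files give no positions. Of the 1073 genes higher at 96 h in overexpression, 258 (24.04%) had a gene with the next or the previous number that was also at least 2-fold higher, against 22.1% of all 7581 genes. For the 1290 lower genes the share was 28.1%, against 26.9%. These shares are near the background. Runs of 5 consecutive numbers at least 2-fold apart in one direction numbered 3, and how many an arbitrary order of genes would give was not worked out. Of all 7581 genes, 10.6% were at least 2-fold higher at 96 h than at 48 h in wild type and 6.78% in the knockout. The shares at least 2-fold lower were 7.16% and 9.77%. The run from KFH46797.1 to KFH46801.1 was higher at 96 h by log2 differences of 1.47 to 2.92 in overexpression, and 4 of its 5 genes were at least 2-fold higher in wild type and 5 in the knockout. The run from KFH46392.1 to KFH46396.1 was higher by 1.08 to 1.84 in overexpression, with 2 of 5 at least 2-fold higher in wild type and 0 in the knockout. The run from KFH40549.1 to KFH40553.1 holds KFH40551.1 and was lower, with log2 differences of -5.74 to -1.20 in overexpression, and 1 of 5 was at least 2-fold lower in wild type and 3 in the knockout. Whether these genes lie side by side in the genome was not analysed here.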

How the data were processed

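RNA from mycelium of 3 strains at 48, 72 and 96 h was sequenced, 1 library each. Trizol was used to extract RNA from mycelium frozen in liquid nitrogen, and libraries followed Illumina protocols, per the labels' protocols. The submitters' processing notes name CASAVA and HISAT2 2.0.5, with no role given. How genes were counted, and on which genome build and annotation, is not given in the sources used here. Values as deposited are treated as FPKM, the authors' levels per transcript length and library size, worked out from their form since the header names libraries only. FPKM values are not counts, so no count test was run.

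Values were taken as log2(FPKM + 1) in Python 3.11.15 with numpy 2.4.6 and pandas 2.3.3. Genes that reached 10 FPKM in an overexpression library were described by size. Slopes per 24 h were fitted with limma 3.58.1 in R 4.3.3, with an intensity trend, over genes that reached 1 FPKM in 3 or more libraries, with Benjamini-Hochberg adjustment. The fit leaves 3 residual degrees of freedom, which measure departure from straight lines and not a spread between cultures, and was tested on simulated data. Relative depth came from a likelihood over whole-read ratios at low values, also tested on simulated reads. Both the likelihood and the simulated reads assume like levels of low genes in the compared libraries, a uniform background aside. That assumption was not tested. The next best depth was lower in log-likelihood by 9.96 at 48 h and 8.43 at 96 h. It was 1.48 of the 72 h depth at 48 h and 1.87 at 96 h. With those depths the 72 h library would be the shallowest. Of the ratios at 48 and 96 h, 84.9% and 76.7% lay within 0.02 (log2) of a whole-read ratio. Such ratios lie close together and the share for arbitrary values was not worked out, so these shares do not bear on the depth estimate.

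Named genes are the 2 of largest gain and the 2 of largest drop in each contrast among genes above 0 in all 3 overexpression libraries, the 2 farthest above and below at 72 h, the 2 of highest mean, the 2 least variable at a mean of 100 FPKM or more, and the highest with a 0 at 48 or at 96 h. Genes, lists and rules were chosen with earlier results of these data known.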

Additional observations from a re-analysis of the deposited data

How the results depend on the processing

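Counts of genes at least 2-fold apart in overexpression were recomputed under 8 alternatives, and most stayed within 1.5 times the reported value. Genes higher at 96 h than at 72 h numbered 57 with a pseudocount of 5, 174 among genes that reached 1 FPKM in any of the 3 libraries, and 27 among genes at 10 FPKM or more in all 3, where the reported count was 95. That last filter, which removes genes with a low level at any time, also gave 158 lower genes for 96 h against 72 h, 549 higher for 72 h against 48 h and 693 higher for 96 h against 48 h. Equal totals gave 365 lower genes for 72 h against 48 h, and 1745 higher and 685 lower for 96 h against 48 h. Of 435 recomputed log2 differences of the 23 named genes, 12 changed sign, in 5 genes and under equal totals, median of ratios or quantile normalisation, all with a reported size of 0.10 or less, and 0 that were at least 2-fold did. Of 504 recomputed values, FPKM levels included, 46 were over 1.5-fold away, 18 with a pseudocount of 0.1, 23 with 5 and 5 with quantile normalisation.

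The slope tests gave 0 genes under most alternatives. Quantile normalisation gave 1 gene against wild type, KFH40551.1 (limma adjusted p = 0.0452), whose adjusted p ran from 0.0452 to 0.9999 over 17 alternatives. Leaving out 1 library gave 0 to 1 genes against wild type and 0 to 1 against the knockout. The genes were KFH44866.1 without overexpression at 96 h, KFH48174.1 without wild type at 96 h and KFH47191.1 without the knockout at 96 h. Each of the 3 was listed at 0 in 1 library. Genes at an unadjusted p under 0.05 then numbered 166 to 918 against wild type and 165 to 956 against the knockout. The lowest count in each case came from leaving out overexpression at 48 h, as did the 0.9999 of KFH40551.1. The next lowest counts were 675 against wild type and 498 against the knockout, so the slope differences rest largely on that library. No paired analysis was possible because each strain and time has 1 library and the labels give no replicate numbers. With 1 library a time, no difference between times can be set against a spread between cultures. Low levels at 48 h come from the overexpression library of lowest estimated depth, and whether depth accounts for them was not tested.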
